A study of Canis lupus familiaris with 34 samples.

Results

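A set of 10 genes that separate epithelial from mesenchymal cells are described across canine osteosarcoma lines and tumours. Beside 7812 genes of the whole series that could be tested, the set comprises 4 epithelial genes (KRT18, KRT8, EPCAM, CDH1) and 6 mesenchymal genes (PRRX1, CDH11, THY1, TWIST1, TWIST2, ZEB1). They were selected on their levels in these lines and tissues, so those levels are given as a description without a test. The platform annotation put 26 probe sets on these symbols, and 21 of them carried a single symbol. A gene is called over background here where log2 intensity exceeded 5. Genes over 5 on at least 3 of the 33 columns entered the tests, which 7 of the 10 genes did. KRT8, CDH1 and TWIST2 did not enter them.

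Epithelial cells hold each other through E-cadherin (CDH1) and the adhesion molecule EPCAM, and carry keratin filaments built of a type II chain such as KRT8 paired with a type I chain such as KRT18. Mesenchymal cells carry vimentin filaments and other cadherins such as cadherin 11 (CDH11, long known from osteoblasts) and the surface glycoprotein THY1. TWIST1, TWIST2, ZEB1 and PRRX1 are transcription factors of mesenchymal development, and ZEB1 and TWIST1 are known repressors of E-cadherin. Osteosarcoma is a bone tumour of mesenchymal origin.

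The 34 Affymetrix Canine_2 arrays came from 31 dogs, and the labels name no genotype. Lines from primary tumours took 25 arrays from 24 dogs, lines from metastases took 3, and snap-frozen primary tumours took 6. Rottweilers gave 10 of the primary line arrays and 2 of the metastatic ones, and Golden Retrievers gave 8 primary line arrays. By sex label, 11 primary line arrays were female and 13 male. Of the metastatic lines 1 was female and 2 were male, and of the tissues 5 were female and 1 male. Age at diagnosis, whose unit is not labelled, ran from 2 to 11.19 for primary lines, 2.39 to 6.31 for metastatic lines and 2.67 to 11.91 for tissues. Metastatic line 1 came from a Rhodesian Ridgeback, primary line 4 from a Saint Bernard, primary line 23 from a German Shepherd, and primary lines 6, 7, 12 and 25 from Rottweilers. Primary line 13 came from a German Shepherd, 14 from a Great Pyrenees, 18 from a Mastiff and 24 from an Alaskan Malamute. Primary line 15 had no breed or sex label. The tissues came from Golden Retrievers (3), a Great Pyrenees, a Belgian tervuren and a Borzoi. Treatment labels are given per sample and are not spelt out. Among primary lines they were SOC, AMP, PALL and ABX, and some SOC labels add a death before or during chemotherapy. Metastatic lines had SOC and PALL, tissues had SOC, and some samples of each group had none. Dog 22 had SOC on line array 19 and no treatment label on line array 22 or tissue 5. The labels do not say whether a line is a clone or how long it had been grown. Dog 22 gave primary line arrays 19 and 22, which were averaged, and tissue 5, and dog 23 gave primary line 20 and tissue 6. The other samples came from different dogs per the labels. Primary lines 5 and 9, labelled as different dogs, correlated at 0.976, above the 0.912 of the 2 arrays of dog 22, and leaving out primary line 9 changed no count of called genes given here.

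Arrays have no read depth, and their number limits precision. Column medians of linear intensity lay between 8.06 and 8.67. The 3′ minus 5′ difference of actin, a sign of RNA breakdown, was 1.42 ± 0.96 (SD, n = 24) in primary lines, 1.74 ± 1.91 (n = 3) in metastatic lines and 2.59 ± 1.15 (n = 6) in tissues. That of GAPDH was 3.09 ± 0.31 in primary lines (highest 4.17), 3.20 ± 0.19 in tissues, and 5.92, 3.12 and 3.21 in metastatic lines 1, 2 and 3. Primary line 4 stood apart, with a median correlation of 0.778 to the other line arrays and the endothelial genes PECAM1 and EMCN at 13.88 each. Sample titles carried 1 of 3 prefixes of unstated meaning: all 6 tissues shared prefix 3 with only 2 primary line arrays (22 and 23). Of 10 macrophage markers, 8 to 10 were over 5 in tissues and 0 to 2 in lines. Of 10 endothelial markers, 5 to 8 were over 5 in tissues and 0 to 5 in lines. Of 9 osteoblast markers on the array, 7 to 8 were over 5 in tissues, 2 to 6 in primary lines and 2 to 3 in metastatic lines. COL1A1 and COL1A2, the collagen I chains, were high everywhere, and the bone matrix gene IBSP was under 5 in every line.

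All levels that follow are log2 GCRMA intensity, and differences are log2 differences. KRT18 was near background in most samples and high in a few. In the 3 metastatic lines it stood at 13.51 (line 1, OSCA_6), 2.22 (line 2, OSCA_11) and 7.02 (line 3, OSCA_16). In the 24 primary lines the lowest value was 1.77, the median 2.6 and the highest 9.03. That highest value belonged to primary line 7 (OSCA_12), and primary line 4 was next at 6.16. No other primary line exceeded 5. Among tissues the lowest was 2.10, the median 2.62 and the highest 9.31, in tissue 2, whose level lay far from the other 5. Samples are bulk RNA, so fewer keratin-bearing cells and less keratin RNA per cell cannot be told apart. The second KRT18 probe set followed the first (Pearson r = 0.986 over the 33 columns) and was over 5 in metastatic line 1, primary line 7 and tissue 2.

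KRT8, the partner chain of KRT18, was rarer. It was over 5 in metastatic line 1, at 10.80, and in primary line 6 (OSCA_8), at 7.26. Metastatic lines 2 and 3 stood at 2.53 and 3.03. The primary lines had a lowest value of 2.06 and a median of 2.34, and the tissues ran from 2.02 through a median of 2.53 to 4.70, again in tissue 2. Only metastatic line 1 therefore had both keratins over 5. Primary line 7 had KRT18 at 9.03 with KRT8 at 2.59, and primary line 6 had KRT8 at 7.26 with KRT18 at 3.83. KRT8 and KRT18 are neighbouring genes in the UU_Cfam_GSD_1.0 annotation. Some KRT8 and KRT18 probe sets also name near-identical gene copies, so their signals cannot be separated: 1 such KRT8 probe set was over 5 in metastatic line 1 and primary line 6 as well.

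EPCAM marked a different set of samples. It stood at 11.34 in metastatic line 1, 1.89 in metastatic line 2 and 2.68 in metastatic line 3. The primary lines ran from 1.89 through a median of 2.40 to 12.19, the highest level being in primary line 25 (OSCA_50). Primary line 12 (OSCA_29) followed at 8.84, primary line 23 at 8.24 and primary line 6 at 7.84, and the other 20 primary lines were under 5. Tissues ran from 2.67 through a median of 3.49 to 8.78 in tissue 5, with tissue 2 at 6.86. Tissue 5 and line arrays 19 and 22 came from the same dog, in which EPCAM stood at 8.78 in the tumour and at 4.02 and 2.76 in culture. The second EPCAM probe set was over 5 in 6 of the 7 same samples, without tissue 2, and the third, dimmer one only in metastatic line 1 and primary line 25.

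CDH1 was at background everywhere. Its single probe set ran from 1.81 to 2.74 over all 34 arrays, and metastatic line 1, with keratins and EPCAM high, had 2.29. A single probe set with no high array gives no check that it detects the transcript.

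**Figure D1:**
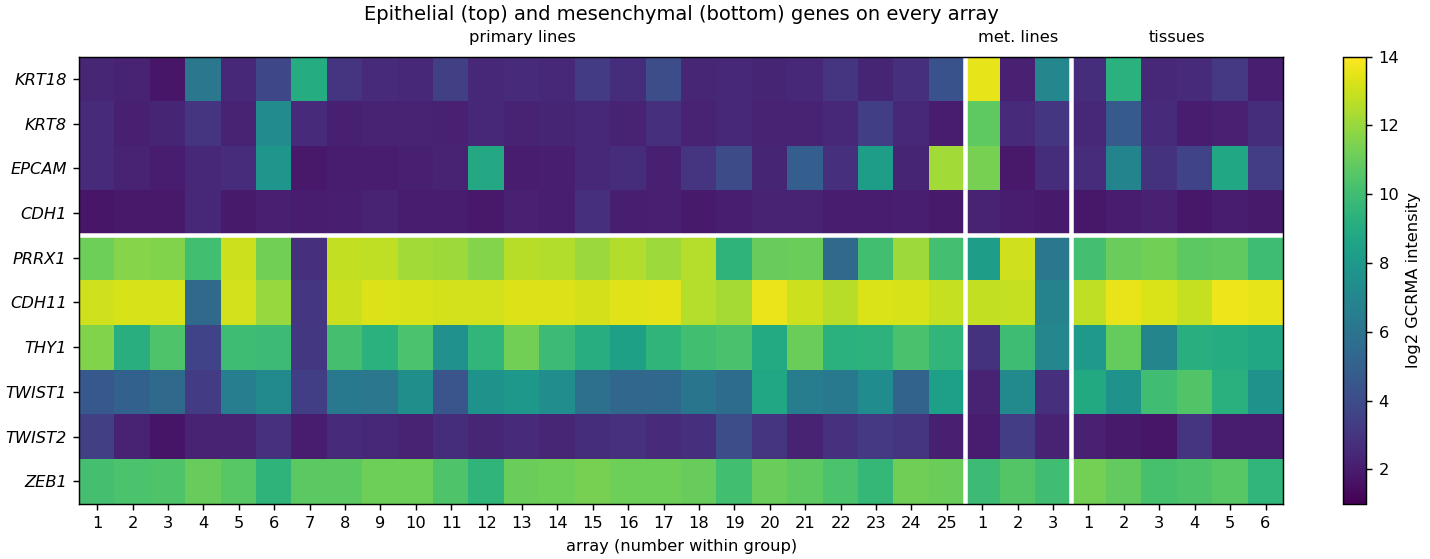
Log2 GCRMA intensity of the 10 genes (rows, epithelial above and mesenchymal below the white line) on the 34 arrays (columns, numbered within each group). KRT18 is bright in metastatic line 1 and primary line 7, EPCAM in primary line 25 and metastatic line 1, and the columns of primary line 7 and metastatic line 3 are dark for PRRX1, CDH11 and TWIST1 while ZEB1 stays bright in all columns.

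Of the mesenchymal genes, 5 were over background in most samples, and 4 of these were low in a few lines. PRRX1, a homeobox factor of limb and craniofacial mesenchyme, stood at 13.04 in metastatic line 2, 8.31 in metastatic line 1 and 6.20 in metastatic line 3. The primary lines ran from 2.78 in primary line 7 through a median of 11.85 to 13, and the tissues only from 9.96 through 10.77 to 11.23. Primary line 7 was at background while all tissues lay within a narrow band. PRRX1 differed between the 2 line arrays of dog 22, at 9.48 in array 19 and 5.48 in array 22, a wider gap than for any other of the 10 genes in this pair. The other 2 PRRX1 probe sets correlated with the first at r = 0.973 and 0.943.

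CDH11 was high in nearly every sample. It stood at 12.79, 12.83 and 6.80 in metastatic lines 1, 2 and 3. The primary lines ran from 3.07 in primary line 7 through a median of 13.15 to 13.64, and primary line 4 had 5.49. The tissues ran from 12.77 through 13.38 to 13.66. Apart from primary lines 4 and 7 and metastatic line 3, no line was under 11.99. Both CDH11 probe sets gave this order of lines closely (r = 0.984).

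THY1 was low in a partly different set. It stood at 2.88 in metastatic line 1, 9.94 in metastatic line 2 and 7.02 in metastatic line 3. The primary lines ran from 3.10 in primary line 7 through a median of 9.66 to 11.54, with primary line 4 at 3.62. The tissues ran from 6.92 through 8.92 to 10.94. Metastatic line 1 thus had THY1 at background and CDH11 at 12.79, whereas primary lines 4 and 7 had both low. The second THY1 probe set followed the first at r = 0.984.

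TWIST1, the basic helix-loop-helix factor, was the gene whose lines and tissues overlapped least. It stood at 2.31, 7.20 and 2.83 in metastatic lines 1, 2 and 3. The primary lines ran from 3.34 in primary line 4 through a median of 6.10 to 8.78 in primary line 20, and the tissues from 7.64 through 9.06 to 10.49. In all, 20 of 24 primary lines lay below every tissue. In dog 22 the tumour had 9.24 and the line arrays 5.6 and 6.27, but in dog 23 the tumour had 7.70 and the line 8.78. TWIST2, its close relative, was under 5 on every array and peaked at 4.07 in line array 19.

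ZEB1 was over 5 in every sample. It stood at 9.93, 10.54 and 10.03 in metastatic lines 1, 2 and 3. The primary lines ran from 9.44 in primary line 6 through a median of 10.88 to 11.34, and the tissues from 9.58 through 10.50 to 11.29. Primary line 7, with PRRX1, CDH11 and THY1 at background, had ZEB1 at 10.74. Of 5 ZEB1 probe sets, 3 others correlated with the brightest at r = 0.692 to 0.857. The remaining probe set was over 5 only in primary lines 1, 2, 3, 4 and 9 and correlated at 0.114, so the probe sets of this gene disagree there. On it primary lines 1 to 4, the 4 arrays with title prefix 1, stood at 6.63 to 7.88, and primary line 9 at 5.25. The part of the prefix was not tested.

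**Figure D2:**
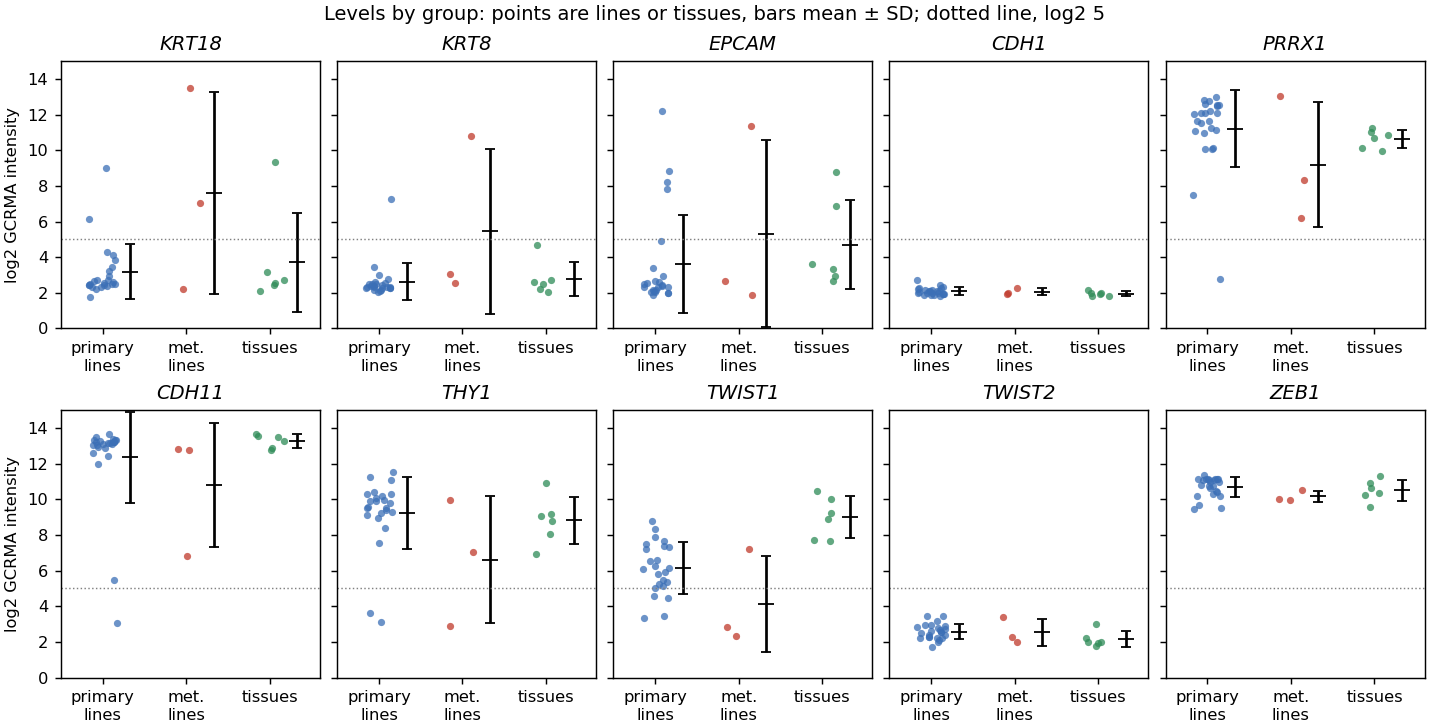
Log2 GCRMA intensity (vertical axes) of each gene in 24 primary lines, 3 metastatic lines and 6 tissues. Points are lines or tissues, with both line arrays of dog 22 averaged, bars show mean ± SD, and the dotted line marks log2 5; for TWIST1, 20 of 24 primary lines lie below all tissues, and for ZEB1 the groups overlap throughout.

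The mesenchymal genes were not low together in every line. PRRX1, CDH11, THY1 and TWIST1 were all among the 4 lowest of 27 lines in primary line 7 and in metastatic line 3. Metastatic line 1 was among the 4 lowest for PRRX1, THY1 and TWIST1, and primary line 4 for CDH11, THY1 and TWIST1. Primary line 6 (CDH11) and the line of dog 22 (PRRX1) were there for 1 gene each, and the other 21 lines for none. Over the 27 lines KRT18 correlated with THY1 at r = -0.865, with TWIST1 at -0.678, with PRRX1 at -0.675 and with CDH11 at -0.56. The points are whole lines on shared array processing, and the rank correlations of KRT18 were -0.523 with THY1 and -0.348 with PRRX1. EPCAM correlated with PRRX1 at r = -0.193, with THY1 at -0.174, with CDH11 at 0.126, with TWIST1 at 0.132 and with ZEB1 at -0.501. The rank correlations of EPCAM were -0.492 with PRRX1, -0.151 with THY1, -0.255 with CDH11, 0.048 with TWIST1 and -0.395 with ZEB1. Primary line 25, with the highest EPCAM, had TWIST1 at 8.34, CDH11 at 12.85 and THY1 at 9.55.

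Lines with EPCAM had lower ZEB1 on its brightest probe set, with an exception that had ZEB2 near background. Of the 5 lines with EPCAM over 5, 4 were the lowest of all 27 in ZEB1: primary line 6 at 9.44, primary line 12 at 9.51, primary line 23 at 9.65 and metastatic line 1 at 9.93. The 22 lines without EPCAM ran from 10.03 through a median of 10.88 to 11.34. The exception, primary line 25, had ZEB1 at 11.06, but ZEB2, the paralogue with the same repressor role, stood at 1.61 there. In the other 26 lines ZEB2 ran from 6.52 through 8.45 to 9.80. The SD of ZEB1 over primary lines was 0.56. These ZEB1 values are from the brightest probe set. On other ZEB1 probe sets several lines without EPCAM lay below some of the 4 lines. On the next brightest, metastatic line 3 stood at 8.06, primary line 1 at 8.36 and the arrays of dog 22 at 8.33 and 8.395. There primary lines 6, 12 and 23 had 8.24, 8.04 and 7.59, and metastatic line 1 had 8.455. On the third brightest, primary lines 7 and 8 had 6.93 and 7.13, below the 7.23 of primary line 12. The pattern was picked out after the values were seen, and it was not tested.

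**Figure D3:**
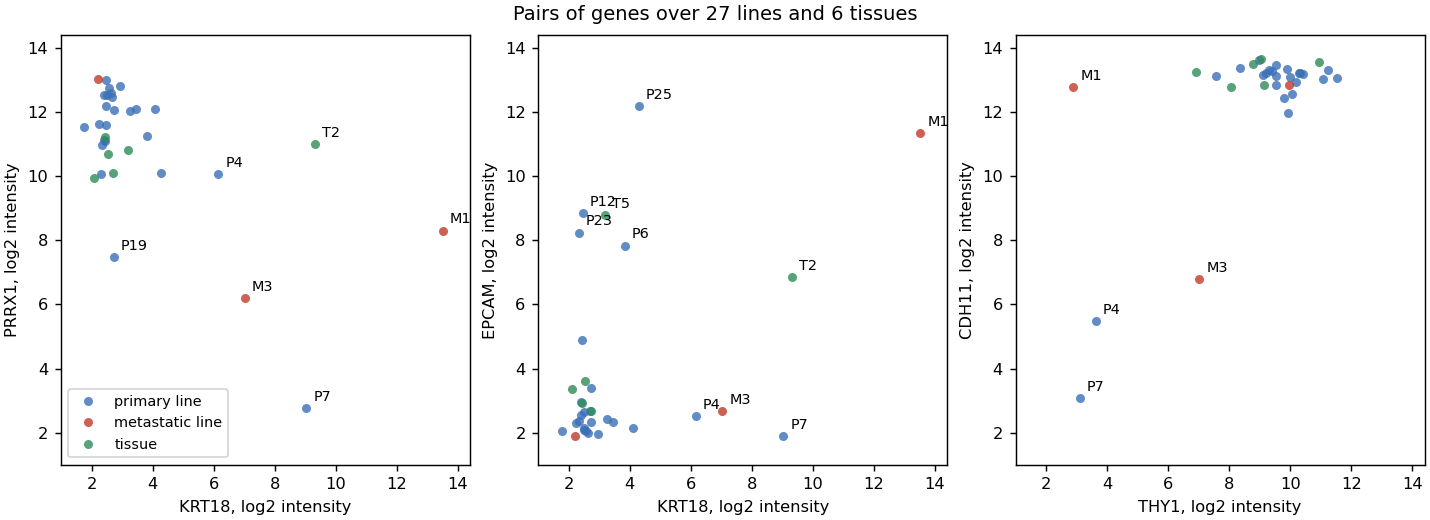
Log2 GCRMA intensity of 3 pairs of genes in 27 lines and 6 tissues (P, primary line; M, metastatic line; T, tissue; number within group). M1, M3 and P7 combine KRT18 over 5 with PRRX1 under 9, whereas P4 and T2 have PRRX1 over 10, the samples with EPCAM over 5 are mostly others than those with KRT18 over 5, and M1 has low THY1 with high CDH11.

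A wider list of 45 epithelial genes (keratins, claudins, desmosomal and splicing factors) was then examined in the same lines. Of these, 39 had a probe set of their own symbol, and 14 were over 5 on at least 1 array. Each array had 3 to 8 of the 39 over 5, with medians of 4 in primary lines, metastatic lines and tissues alike. The most were 8, in primary line 6 and in both line arrays of dog 22, and 7 in metastatic line 1 and primary line 23. The plaque gene JUP, KLF5 and SPINT2, which non-epithelial cells also transcribe, made up most of the count elsewhere. Metastatic line 1 had the desmosomal linker DSP at 6.88 and the tricellular junction receptor LSR at 8.37. Primary line 6 had DSP at 7.53, the tight junction gene CLDN1 at 6.40 and the epithelial splicing factor ESRP1 at 5.79. Primary line 23 had LSR at 9.98 and ESRP1 at 5.45. The line of dog 22, with KRT18, KRT8 and EPCAM under 5, had the tight junction genes OCLN (8.51 and 8.06 on its 2 arrays) and CLDN1 (7.65 and 9.67). The keratin gene KRT7 stood at 3.89 on its array 19 and 5.32 on its array 22.

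CXADR, a tight junction receptor of the immunoglobulin family, was over background in the same lines as KRT18, KRT8 or EPCAM. Of 27 lines, 8 had KRT18, KRT8 or EPCAM over 5 on the brightest probe set, and CXADR was over 5 in all 8. Primary line 4 and metastatic line 3 were among them through KRT18 alone, which on its second probe set stood at 3.81 and 4.85. Primary line 21, not among them, had EPCAM at 4.89 and CXADR at 2.93. CXADR was over 5 in 1 more line, that of dog 22. In these 9 lines it ran from 6.87 to 10.40, and in the other 18 from 2.70 to 4.41, with no value between. The tissues did not show this: tissue 2, with KRT18 and EPCAM over 5, had CXADR at 4.93, and tissues 3 and 6, with no epithelial gene of the 4 over 5, had 8.22 and 8.26. Tissue 5, with EPCAM at 8.78, had 6.85, and tissues 1 and 4 had 2.97 and 4.74. This pattern was picked out after the values were seen and was not tested.

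**Figure D4:**
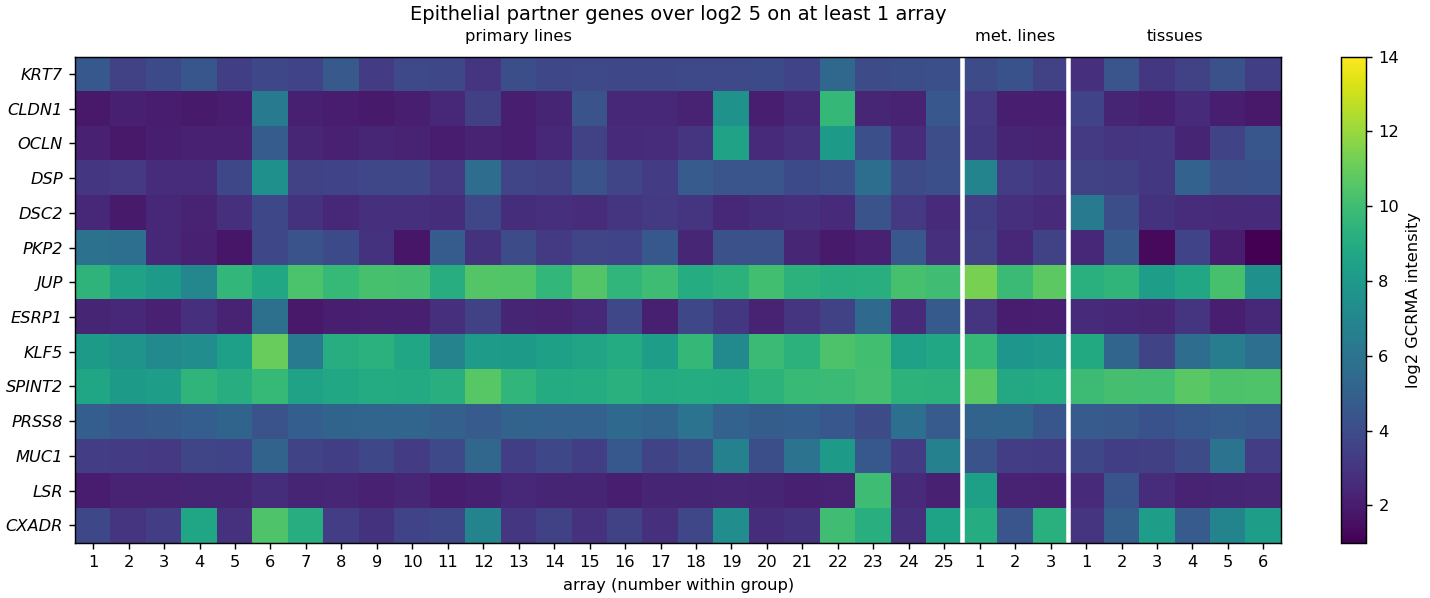
Log2 GCRMA intensity of the 14 listed epithelial genes over 5 on at least 1 of 34 arrays (columns, numbered within group). CXADR is bright in primary lines 4, 6, 7, 12, 19, 22, 23 and 25 and metastatic lines 1 and 3, whereas LSR is bright only in metastatic line 1 and primary line 23, and OCLN and CLDN1 most in line arrays 19 and 22.

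Marker lists of other cell types were read in the lines that carried epithelial genes. None of the 4 keratinocyte markers on the array was over 5 in any sample, KRT1 and TP63 included, and at most 1 of 3 mesothelial markers was, with WT1 and CALB2 under 5 throughout. Of 8 smooth muscle and pericyte markers, primary lines had 2 to 5 over log2 5, whereas metastatic lines and tissues each had 4 to 5. MYH11 and NOTCH3 were under 5 on every array and RGS5 in every line. CNN1, a contractile regulator, stood at 10.07 in metastatic line 1, 10.89 in metastatic line 3 and 11.36 in primary line 7. High CNN1 was not particular to these lines: it was over 5 on 25 arrays. CNN1 averaged 7.52 in primary lines, and its highest level in the 21 lines other than metastatic lines 1 and 3 and primary lines 4, 6, 7 and 25 was 11.06. It was under 5 in primary lines 4 (2.96), 6 (4.54), 12 (4.09) and 25 (3.25). DES, the muscle filament gene, stood at 9.52 in metastatic line 3 and 5.78 in metastatic line 1. Endothelial markers numbered 5 of 10 over 5 in metastatic line 1 (PECAM1 at 6.16, EMCN at 6.10) and 5 of 10 in primary line 4, and KDR was at 7.12 in primary line 7. CDH5 and VWF were under 5 in all of these lines. Their part in the keratin pattern was not tested. Vimentin (VIM) was 14.51 in metastatic line 1, 14.54 in primary line 7 and 14.69 in primary line 25, beside a primary line mean of 14.62 ± 0.10 (SD, n = 24).

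By pattern over the 27 lines, the 5 genes most like KRT18 were PTGS1 (cyclooxygenase 1, r = 0.891), SLC39A8 (0.860), TMEM176A (0.843), TBC1D9 (0.841) and PDLIM3 (0.839). PDLIM3, a muscle cytoskeletal protein, stood at 12.53 in metastatic line 1, 9.99 in primary line 7 and much the same in metastatic line 3. Its median was 2.48 over the 21 lines other than metastatic lines 1 and 3 and primary lines 4, 6, 7 and 25. The least like were COL6A1 (-0.861), the homeobox gene IRX5 (-0.839) and the matrix link protein HAPLN1 (-0.822). HAPLN1 was at 2.46 to 2.96 in metastatic lines 1 and 3 and primary lines 4 and 7, against a median of 10.73 in those 21 lines. The genes most like PRRX1 were BGN (biglycan, 0.900), PCOLCE (0.837), TGFB2 (0.837), NPC1 (0.826) and RBP4 (0.825), and the least like were NR1H4 (-0.931), HTR7 (-0.875) and ADGRG6 (-0.806). NR1H4, the bile acid receptor FXR, was at 9.69 in primary line 7, 8.30 in metastatic line 3 and 6.57 in metastatic line 1, against a median of 1.47. These genes were picked from all those tested for their correlation, and the same few lines hold the extreme values.

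The first comparison set primary lines against tissues, as the series was laid out. The TWIST1 mean was 6.15 ± 1.45 (SD, n = 24) in primary lines and 9 ± 1.18 (n = 6) in tissues, a difference of -2.85 (95% interval -4.22 to -1.49). By the rule applied to all genes (limma, adjusted p under 0.05 and at least 2-fold) 1 of the 7 was called, TWIST1. Over all 7812 genes 14.6% were called, 5.59% higher and 9.05% lower in lines. Because the genes were selected on these levels, nothing is read from this count. The other differences were -0.54 for KRT18 (95% interval -2.58 to 1.51), -1.08 for EPCAM (-3.71 to 1.55), 0.57 for PRRX1 (-1.32 to 2.46), -0.91 for CDH11 (-3.06 to 1.23), 0.43 for THY1 (-1.41 to 2.27) and 0.19 for ZEB1 (-0.33 to 0.70). Within title prefix 3 alone TWIST1 differed by -2.20 and was not called. PRRX1 turned to -2.87 there, EPCAM to 0.80 and ZEB1 to -0.52. With prefix as a covariate TWIST1 was not called either. Both fits give the same difference by design, that of primary line arrays 22 and 23 from the tissues. Tissues held the macrophage and endothelial transcripts given above, and their part in the TWIST1 difference was not tested.

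**Figure D5:**
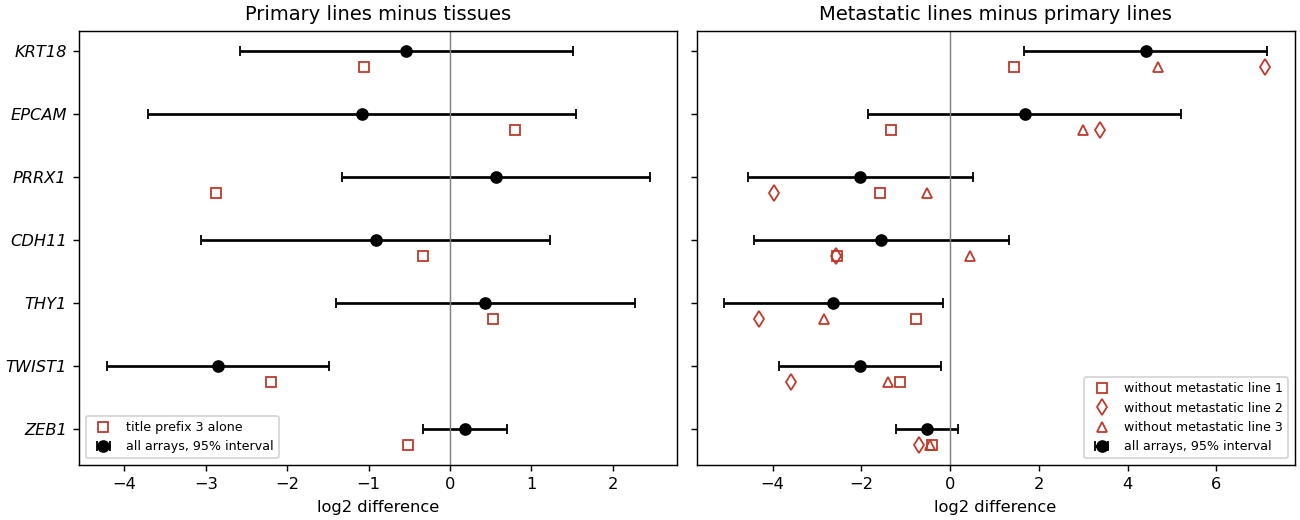
Log2 differences (horizontal axes) of the 7 tested genes between primary lines and tissues (left) and between metastatic and primary lines (right). Filled points are the values from all arrays with 95% intervals and open symbols repeat them with title prefix 3 alone or without a metastatic line; on the left TWIST1 lies at -2.85, and KRT18 on the right moves from 4.41 to 7.09 without metastatic line 2.

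The listed partners were compared between lines and tissues in the same fit. Of the 45 epithelial genes 7 could be tested, and 2 were called, which stands beside the 14.6% over all genes. KLF5, a zinc finger factor of epithelia and muscle, was higher in lines by 2.62 (SE 0.53, limma adjusted p = 3.9e-04). SPINT2, an inhibitor of surface proteases, was lower by 1.08 (fold 2.11, adjusted p = 0.00284). Their median difference was 0.19, against -0.05 over all genes. SPINT2 lost its call without tissue 4 (-1, under 2-fold) and was at -0.29 in both title prefix fits. KLF5 was at 4.28 in them, called with prefix as a covariate (adjusted p = 0.00277) and not within prefix 3 alone (adjusted p = 0.0799).

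Of 18 further transcription factors of epithelial-mesenchymal transition, 14 were on the array and 6 could be tested. NFATC4 was lower in lines by 1.04 (adjusted p = 0.0263) and was the only 1 of the 6 called, a share near the 14.6% over all genes. SNAI2, the zinc finger factor Slug, was lower by 0.64 (adjusted p = 0.0404), under 2-fold. The median of the 6 was -0.64. NFATC4 was under 2-fold or missed the adjusted threshold without primary line 4 (-0.94) and without tissue 2, 3, 4 or 5 (-0.92, -0.89, -0.94 and -1.01). SNAI1 was under 5 on every array, and SNAI2 was high in all lines, at 11.54 in metastatic line 1 and 12.14 in primary line 7.

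Of 30 mesenchymal effector genes 29 were on the array and tested. There were 6 called genes: LOX, CD44, TAGLN and ALCAM were higher in lines, and NT5E and ENG were lower. Over all genes 5.59% were called higher and 9.05% lower. NT5E (CD73, a surface enzyme of mesenchymal stromal cells) differed by -4.52 (SE 0.67, adjusted p = 5.2e-06), the collagen crosslinking enzyme LOX by 3.41 (SE 0.68, adjusted p = 4.1e-04) and the hyaluronan receptor CD44 by 2.57 (SE 0.39, adjusted p = 6.6e-06). The median of the 29 was -0.15. With title prefix as a covariate 2 were called, CD44 (2.41, adjusted p = 0.0169) and LOX (4, adjusted p = 0.047), and NT5E differed by -4.24 (adjusted p = 0.0543). Leaving out tissue 3 or tissue 6 took TAGLN to 1.92 or 1.81, uncalled, and leaving out tissue 1 took ENG to -1.93, uncalled. NT5E and ENG are transcribed by endothelium as well, whose markers were over 5 in the tissues, and the part of those markers was not tested.

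Individual effector genes were low in lines named above, though most of the 29 were over 5 there. The count over 5 was 24, 23 and 26 in primary lines 4, 6 and 7. It was 25 and 26 in metastatic lines 1 and 3, against a median of 28 in primary line arrays. COL6A3, a collagen VI chain, was at 3.30 in metastatic line 1, 3.80 in metastatic line 3, 2.17 in primary line 7 and 2.82 in primary line 6, against 10.01 ± 2.78 (SD, n = 24) in primary lines. The fibroblast protease FAP was at 3.09 in primary line 4 and 3.14 in primary line 7. FAP was at 8.31 in primary line 6, 11.19 in metastatic line 1 and 8.54 in metastatic line 3. Primary line 6 had ACTA2, smooth muscle actin, at 1.84 and ENG at 1.80. Primary line 4 had the proteoglycan DCN at 5.16, where primary lines averaged 12.94. DCN was at 11.30 and 13.43 in primary lines 6 and 7, and at 13.9 and 13.45 in metastatic lines 1 and 3. COL1A1 was 11.88 or more in each of these lines.

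The second comparison set the 3 metastatic lines against the 24 primary lines, a contrast the choice of genes did not name. The genes were nevertheless chosen with the levels of these same lines known, so the values are a description. The KRT18 difference was 4.41 (95% interval 1.66 to 7.15), with 2 of the 3 lines above at least 23 of the 24 primary lines. By the rule applied to all genes (limma, adjusted p under 0.05) 0 of the 7 passed, and 3 had an unadjusted p under 0.05 (KRT18, THY1 and TWIST1). Over all genes 0.0128% (1 gene) passed and 531 had an unadjusted p under 0.05. THY1 differed by -2.63 (95% interval -5.10 to -0.17), TWIST1 by -2.03 (-3.87 to -0.20), PRRX1 by -2.03 (-4.56 to 0.51), CDH11 by -1.55 (-4.43 to 1.33), ZEB1 by -0.52 (-1.21 to 0.17) and EPCAM by 1.69 (-1.84 to 5.22). Metastatic lines 1 and 3 set most of these directions. Metastatic line 2 lay within the range of the primary lines for 8 of the 10 genes and just outside it for PRRX1 and EPCAM. The EPCAM direction rested on metastatic line 1, as metastatic line 3 (2.68) was below the primary line mean of 3.62. That of CDH11 rested on metastatic line 3, as metastatic line 1 (12.79) was above the primary line mean of 12.36. Without metastatic line 2, the only metastatic line with KRT18 under log2 5, the KRT18 difference was 7.09 and it passed. The count over all genes in that fit is not given here. Without metastatic line 1 the KRT18 difference was 1.44. PRRX2, the paralogue of PRRX1, differed by -2.20 (adjusted p = 0.572). Metastatic line 1 also had the widest 3′ minus 5′ gap of GAPDH given above, and its part in these differences was not tested.

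Breed and survival, which the choice of genes did not use, were also set against them. Between 10 Rottweiler and 7 Golden Retriever primary lines, with sex as a covariate, none of the 7 genes passed (limma adjusted p = 0.702 to 0.994), and 0 had an unadjusted p under 0.05. Over all genes 0.0256% (2 genes) passed, and 852 had an unadjusted p under 0.05. EPCAM was higher in Rottweiler lines by 1.60 (95% interval -1.49 to 4.68), and 3 of its 4 primary lines over 5 came from Rottweilers. Survival, in a unit the labels do not give, was fitted in 11 primary lines with the treatment label SOC, over values from 4.04 to 64.01. The line of dog 22 was 1 of them, as the mean of array 19 (SOC) and array 22 (no treatment label). None of the 7 genes passed (adjusted p = 0.903 to 0.983). KRT18 had a slope of 0.37 per doubling (95% interval 0.09 to 0.65, unadjusted p = 0.0146 in the limma fit), the only 1 with an unadjusted p under 0.05. KRT18 was under log2 5 in all 11 of these lines, from 1.77 in primary line 3 to 4.09 in primary line 17. This slope therefore lies within background signal. Over all genes 0% (0 genes) passed, and 382 had an unadjusted p under 0.05 in limma, the only tool run.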

How the data were processed

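The deposited intensity, 1 value per probe set and array, is a GCRMA value according to the submitters' processing notes, with the version not given in the sources. The authors' values were linear, and log2 was computed here with a floor of 1, below which 0 values lay. Of 43035 probe sets, 111 controls were left out; 29254 had a single symbol, 439 several and 13231 none, and 27680 matched UU_Cfam_GSD_1.0 by gene identifier with 0 symbols changed. Probe sets over log2 5 on at least 3 of 33 columns were kept (18480, of which 13983 had a single symbol), and that with the highest mean stood for its gene, giving 7812 genes. Tests used limma 3.58.1 in R 4.3.3 (lmFit, eBayes) with Benjamini-Hochberg adjustment over all genes, called at an adjusted p under 0.05, and at least 2-fold for lines against tissues; the 3 groups shared 1 fit. The fit was tested on simulated data.

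The genes, lists and tests were chosen with earlier results of these data known. Named were the 10 genes, up to 3 called genes of each list with the largest difference, the 5 most and 3 least correlated genes with KRT18 and with PRRX1, and cell type markers. Other partner and effector genes (CXADR, LSR, DSP, CLDN1, OCLN, ESRP1, JUP, ZEB2, SNAI1, SNAI2, PRRX2, VIM, COL6A3, FAP, DCN, TAGLN, ALCAM and ENG) were named after their values were seen. Replicate numbers follow the order of deposit and pair no samples; dogs 22 and 23 link lines and tissues. Normalization, filter, floor, probe set choice, array weights, title prefix and each left-out sample were varied.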

Additional observations from a re-analysis of the deposited data

Results flagged for a closer look

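In 9 cases a single sample lay far from the rest of its group, judged by the gap to the nearest value against the group's range. Over the 30 pairs of gene and group of 4 to 10 samples examined this way, chance alone would set about 1 in 20 apart. That rate is no yardstick here, since the genes were chosen for being high or low in a few samples, and 4 of the 9 cases are primary line 7. Tissue 2 was high for KRT18 (9.31) and for KRT8 (4.70), and tissue 4 for TWIST2 (3.03), although the TWIST2 value is under log2 5. Among the 10 Rottweiler primary lines, primary line 7 was high for KRT18 (9.03) and low for PRRX1 (2.78), CDH11 (3.07) and THY1 (3.10). In the same group primary line 6 was high for KRT8 (7.26). Among the 7 Golden Retriever lines, the mean of dog 22 was low for PRRX1 (7.48), and this mean joins arrays at 9.48 and 5.48.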

How the results depend on the processing

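The count of the 10 genes called between primary lines and tissues was 1, and 0 with title prefix as a covariate or prefix 3 alone. Between metastatic and primary lines it was 0, and 1 without metastatic line 2. Epithelial partners called numbered 1 with prefix as a covariate and 0 in prefix 3 alone, and 1 to 2 over left-out samples. Further transition factors called numbered 2 without the filter, and 0 with the filter at log2 7, quantile normalization, a floor at 16, array weights, without primary line 4 (chosen after seeing the data) or with prefix as a covariate, and 0 to 1 over left-out samples. Mesenchymal effectors called numbered 2 with prefix as a covariate. The other 97 counts stayed within 1.5 times. The cause was not tested.

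Single genes changed sign in 27 alternatives. Against tissues KRT18 ran from -0.86 to 0.58 (without tissue 2) over left-out samples. EPCAM was at 0.80, PRRX1 at -2.87 and ZEB1 at -0.52 in both prefix fits. These 2 fits are not separate checks, as all tissues carried prefix 3. Both set primary line arrays 22 and 23, with PRRX1 at 5.48 and 10.06, against the tissues. Against primary lines EPCAM ran from -1.33 (without metastatic line 1) to 3.39 and CDH11 from -2.57 to 0.45 (without metastatic line 3). Between breeds KRT18 was at -0.28 with array weights and, over left-out lines, from -0.19 (without primary line 7, chosen after seeing the data) to 0.39. PRRX1 was at 0.14 by the most variable probe set, 0.12 by the probe set mean, 0.062 with the floor, 0.31 with array weights and -0.20 to 0.70 over left-out lines. THY1 was at 0.16, 0.013 and 0.72 under these settings but the floor, -0.18 to 0.38 over left-out lines and 0.31 in prefix 2. Survival slopes turned to -0.0047 for CDH11 and 0.11 for THY1 with array weights, to -0.062 for TWIST1 and -0.026 for ZEB1 in prefix 2, to -0.028 for TWIST1 with early deaths added and to -0.046 for ZEB1 by the probe set mean. The cause was not tested. With dog as a random replicate block (correlation 0.13) 1 of the 10 genes was called, as without it.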
